A study of Mus musculus with 6 samples.

Results

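The genes that make, sense, take up, move and export cholesterol were followed in eWAT, the epididymal depot of white adipose tissue in male mice. A fixed list of 28 genes, chosen by symbol for their roles, was looked up among the 55039 genes counted in the series. The list held 18 enzymes of synthesis, 4 regulators that sense sterol, and 6 genes of sterol transport, uptake, efflux and storage. All 28 were found, and all 28 had enough reads to be tested.

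Tissue was compared between 3 mice with cancer-associated cachexia (CAC) and 3 control mice (CONT). All were male C57BL/6 mice, 6 to 7 weeks old at the start, and the labels name no transgene or deletion. CAC mice had received Lewis lung carcinoma (LLC) cells under the skin, and CONT mice had received PBS. The tissue was taken 28 days later and gave 1 mRNA library per mouse. LLC is a single mouse tumor line grown in 1 mouse strain, and whole fat pads hold adipocytes together with vessels, fibroblasts and immune cells.

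Cholesterol is built from acetyl-CoA. The mevalonate steps give isoprenoid units, which are joined to squalene, squalene is closed to the ring of lanosterol, and a last series of steps turns lanosterol into cholesterol. When the endoplasmic reticulum runs low on sterol, SCAP carries SREBP2 (encoded by Srebf2) to the Golgi, where it is cut and released to switch on the genes of synthesis and uptake. INSIG1 and INSIG2 hold SCAP back when sterol is plentiful. The nuclear receptor LXR answers to oxysterols, which accumulate when sterol is plentiful, and its known targets include the exporters Abca1 and Abcg1 and the ligase gene Mylip. Adipocytes keep a large pool of free cholesterol in the membrane and lipid droplet and make little of it themselves.

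In CAC eWAT, 16 of the 18 synthesis enzymes had a lower fitted level than in CONT eWAT, beside 9353 of the 17296 genes tested, and the count was 12 of 18 without CONT replicate 3 and 13 of 18 without CAC replicate 1. The SREBP2 target Insig1 also stood lower, and the known LXR targets Mylip, Abca1 and Abcg1 stood higher. Other known LXR targets, Pltp, Srebf1 and Lpcat3, overlapped between the groups, with log2 fold changes of -0.81, -0.53 and 0.17. Fitted levels differed by 2.03- to 2.87-fold for the lower genes Mvd, Insig1, Sc5d and Nsdhl and by 2.56- to 2.84-fold for Abcg1, Abca1 and Mylip. By edgeR's quasi-likelihood test none of these differences passed an adjusted p of 0.05 (Benjamini-Hochberg over all genes), and 0% of the genes tested did. With DESeq2, which was the tool of the study, 6 of the 28 genes passed, against 5.55% of all genes. In bulk tissue, fewer cells of a type and less RNA per cell cannot be told apart.

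The 6 libraries held 15713794 to 25926425 counts. CONT replicate 1 stood apart, with 30.2% of its counts on genes of the mitochondrial genome against 3.89% to 5.04% in the other 5 libraries. Levels are given as CPM, edgeR's counts scaled to the TMM-adjusted library size, and 1 CPM stood for 11.2 reads in that library and for 22.1 to 26.5 reads elsewhere. The tissue label was checked against marker lists, whose CPM were summed per library. The 8 adipocyte markers came to 16694 to 31637 CPM in CONT and 29912 to 31945 CPM in CAC, and Adipoq alone stood at 1692 CPM or more in every library. The 6 epididymis markers summed to 9106 CPM in CONT replicate 3 and 139 CPM in CONT replicate 1, but to 2.83 CPM or less in the other 4 libraries. Several lists moved with the groups. The 4 neutrophil markers were each higher in every CAC library than in any CONT library, 4 of 5 fibroblast markers were lower (summed 1182 to 1750 CPM in CONT, 259 to 789 CPM in CAC), and 5 of 6 B and plasma cell markers were lower (34.4 to 91.5 CPM, 7.82 to 19.0 CPM). Each of the 9 macrophage markers overlapped between the groups, and their sum ran from 483 to 1343 CPM in CONT and from 504 to 1164 CPM in CAC. Their part in the results below was not tested.

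Promoter sequences are shown first, because the synthesis genes are known to be switched on together by SREBP2, which binds near NF-Y and Sp1. RefSeq windows of 300 bases (build GRCm38.p6, from 250 bases before to 50 bases after a transcription start) were at hand for 22 of the 28 genes. Of these, 6 are printed below, 5′ to 3′ on the strand of the gene, as the bases before the start that lie outside the gene. They belong to the enzyme gene with an SREBP-type match (Hmgcs1), the enzymes and the sensor with the lowest log2 fold changes in the edgeR fit (Nsdhl, Sc5d and Insig1), and the ligase and the exporter with the highest (Mylip and Abca1). Capitals mark the NF-Y box CCAAT, read as ATTGG on the other strand, and in Hmgcs1 also the SREBP-type match TCACNCCAC.
Hmgcs1 (chr13:119690101-119690350, plus strand): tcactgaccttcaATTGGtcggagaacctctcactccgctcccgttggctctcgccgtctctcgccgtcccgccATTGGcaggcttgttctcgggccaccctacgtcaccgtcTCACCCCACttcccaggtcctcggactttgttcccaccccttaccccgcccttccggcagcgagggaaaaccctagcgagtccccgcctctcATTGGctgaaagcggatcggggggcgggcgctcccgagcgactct
Nsdhl (chrX:72918271-72918520, plus strand): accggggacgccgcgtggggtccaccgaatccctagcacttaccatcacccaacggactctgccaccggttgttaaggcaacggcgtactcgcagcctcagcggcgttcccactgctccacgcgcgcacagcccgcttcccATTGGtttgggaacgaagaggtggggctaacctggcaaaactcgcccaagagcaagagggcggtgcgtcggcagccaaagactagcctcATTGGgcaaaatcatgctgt
Sc5d (chr9:42264301-42264550, minus strand): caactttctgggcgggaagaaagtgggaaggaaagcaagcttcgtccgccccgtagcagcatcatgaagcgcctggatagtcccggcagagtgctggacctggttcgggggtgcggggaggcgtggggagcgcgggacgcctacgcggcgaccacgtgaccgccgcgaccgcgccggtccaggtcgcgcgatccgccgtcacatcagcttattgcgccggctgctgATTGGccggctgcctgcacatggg
Insig1 (chr5:28071162-28071362, plus strand): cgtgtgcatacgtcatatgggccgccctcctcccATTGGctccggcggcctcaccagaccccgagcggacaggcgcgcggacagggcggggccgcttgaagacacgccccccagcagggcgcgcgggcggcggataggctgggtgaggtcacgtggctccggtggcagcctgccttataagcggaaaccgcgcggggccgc
Mylip (chr13:45389492-45389741, plus strand): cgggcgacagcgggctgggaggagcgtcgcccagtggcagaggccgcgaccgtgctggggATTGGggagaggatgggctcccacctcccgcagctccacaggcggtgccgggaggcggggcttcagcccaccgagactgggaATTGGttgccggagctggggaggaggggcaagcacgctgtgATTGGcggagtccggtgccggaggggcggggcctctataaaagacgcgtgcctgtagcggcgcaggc
Abca1 (chr4:53159896-53160145, minus strand): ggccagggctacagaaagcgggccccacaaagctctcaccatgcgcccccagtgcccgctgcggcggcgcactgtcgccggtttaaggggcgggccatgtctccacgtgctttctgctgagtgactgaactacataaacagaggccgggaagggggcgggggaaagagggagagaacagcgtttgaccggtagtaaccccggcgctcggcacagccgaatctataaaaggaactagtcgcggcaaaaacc

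Letters of the NF-Y box recur in these promoters. Both strands were searched, and CCAAT was found in the 300-base windows of 19 of the 22 genes, or 86.4%, and in 14 of the 15 synthesis enzymes with a window. Among the 12078 tested genes with a window the share was 42.1%. The printed stretch of Hmgcs1 holds 3 boxes, those of Nsdhl and Mylip hold 2 and 3, those of Sc5d and Insig1 hold 1 each, and that of Abca1 holds none. Mvk, which encodes mevalonate kinase, had 5 boxes in its window, more than any gene printed here. The Sp1 box GGGCGG was found in 21 of the 22 genes (95.5%), against 64.8% of tested genes. The SREBP-type letters TCACNCCAC were found in 1 of the 22, in Hmgcs1 with the first base 137 bases before the start (-137), against 1.46% of tested genes. No match of one motif overlapped a match of another in these 22 genes. A match is a run of letters and was not tested as a binding site, and genes on both sides of the comparison carried the NF-Y box, Mylip among them.

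**Figure D1:**
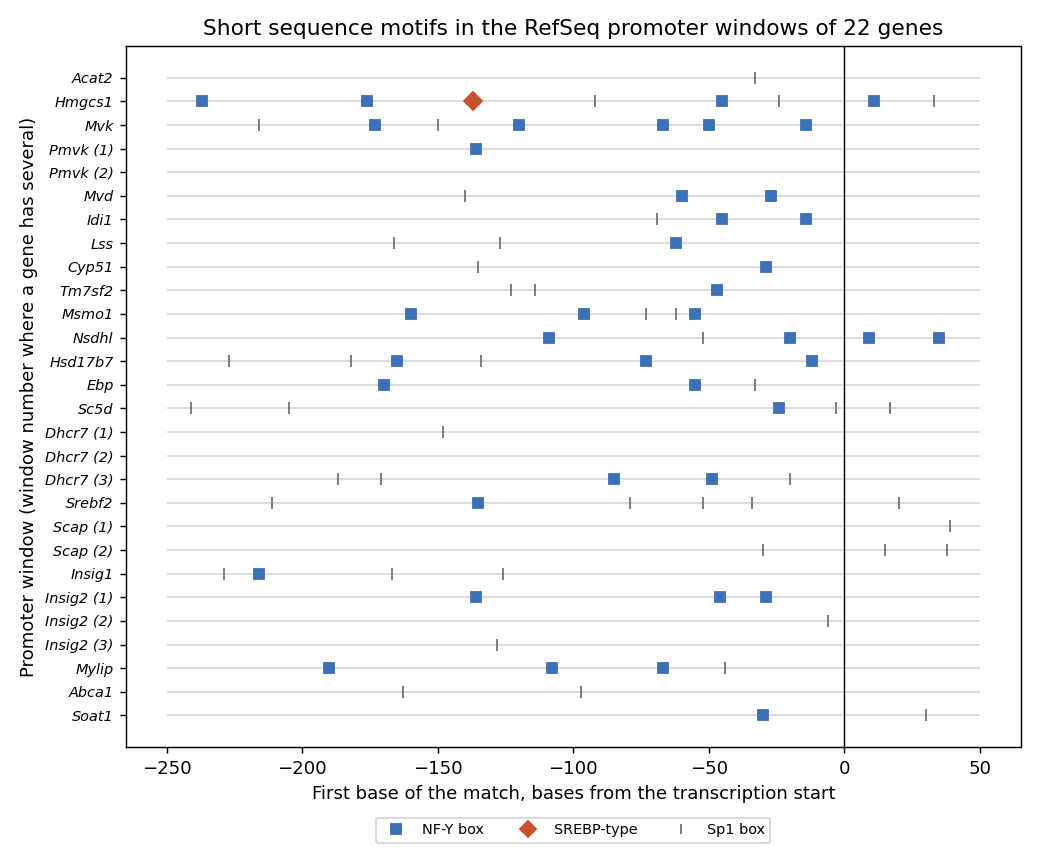
Positions of motif matches in the RefSeq promoter windows of the cholesterol genes, with the distance from the transcription start in bases on the horizontal axis and 1 row per window. NF-Y boxes are present in 19 of the 22 genes with a window, and the single SREBP-type match lies in Hmgcs1 at -137.

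The comparison over all 28 genes is given as counts beside the same counts over the 17296 genes tested. With edgeR, 0 of 28 genes had an adjusted p under 0.05, and 0% of all tested genes did. At an unadjusted p under 0.05, 8 genes were lower in CAC against 6.95% of all genes, and 3 were higher against 6.31% of all genes. Their adjusted p (edgeR, Benjamini-Hochberg) lay between 0.215 and 0.339. Levels of the groups did not overlap, with every CAC library below every CONT library, for 9 of 28 genes against 10.7% of all genes. They were above without overlap for 3 of 28 genes against 11.8% of all genes. With DESeq2, 6 genes had an adjusted p under 0.05, against 5.55% of the 17292 genes it adjusted. Nsdhl, Sc5d and Insig1 were the 3 lower ones, against 2.37% of all genes, and Mylip, Abca1 and Abcg1 were the 3 higher ones, against 3.18% of all genes. When 1 library was left out, DESeq2 no longer called Nsdhl, Insig1 and Abca1 without CONT replicate 2 (adjusted p = 0.0519, 0.0674 and 0.0583), nor Abca1 without CAC replicate 2 or 3 (0.0932 and 0.112). Sc5d, Mylip and Abcg1 stayed under 0.05 in each of those 6 fits. With limma's voom and sample quality weights, 8 genes had an adjusted p under 0.05 (the same 6 with Mvk and Mvd), against 5.53% of all genes. An exact permutation test of 3 against 3 libraries cannot give a p below 0.1, and each of the 12 genes without overlap reached that value.

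**Figure D2:**
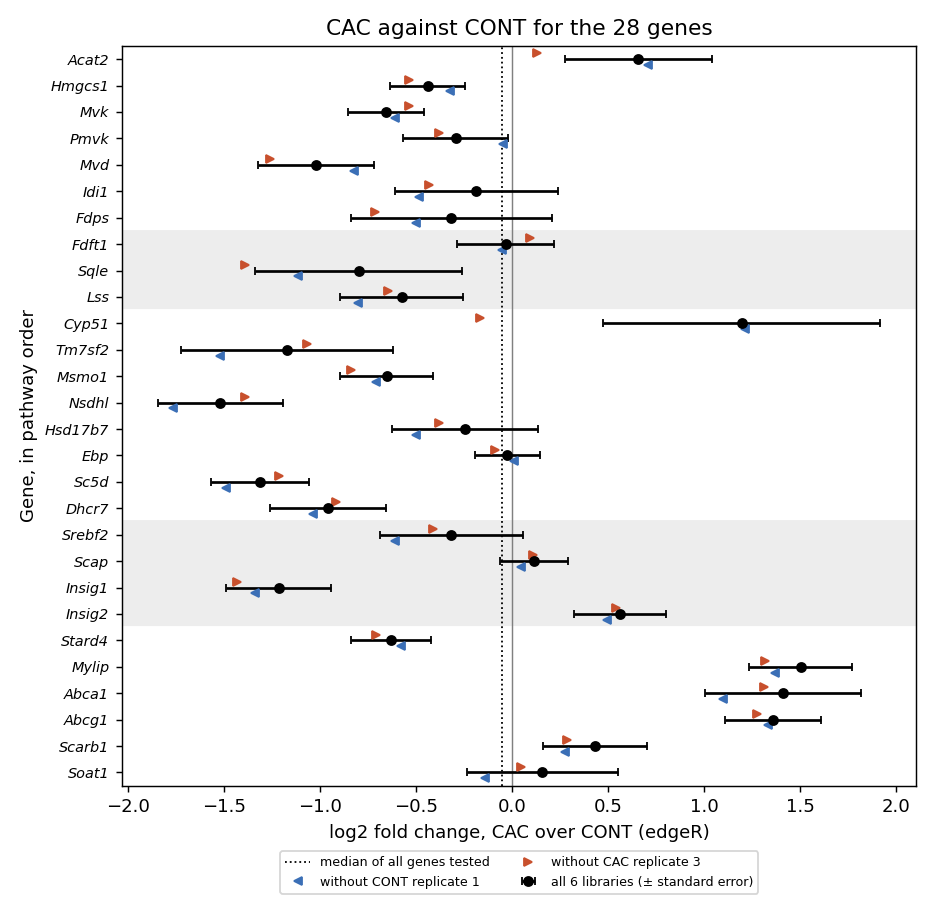
Log2 fold change of CAC over CONT for the 28 genes (edgeR estimate, horizontal axis) with its standard error as bars, triangles for the estimates without CONT replicate 1 or without CAC replicate 3, and a dotted line at the median of all genes. Of the 18 synthesis enzymes 16 lie left of 0, with Nsdhl lowest at -1.52, and Mylip, Abca1 and Abcg1 lie farthest right among the transport genes.

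By role, the median log2 fold change was -0.51 for the 18 synthesis enzymes, of which 16 were lower in CAC, beside -0.06 for all genes tested. It was -0.32 for the 7 mevalonate steps, -0.58 for the 3 steps to squalene and lanosterol, and -0.81 for the 8 steps after lanosterol, but -0.44, -0.35 and -0.46 in that order without CONT replicate 3. With 1 library left out, the mevalonate median ranged from -0.54 without CAC replicate 3 to -0.13 without CAC replicate 2. The 4 regulators had a median of -0.10, from -0.28 without CONT replicate 1 to 0.16 without CONT replicate 3, and the 6 genes of transport, uptake, efflux and storage had a median of 0.90. The medians are descriptions of lists and carry no test.

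Among the 7 mevalonate steps, Hmgcs1, Mvk and Mvd separated the groups. Mvk, the kinase that phosphorylates mevalonate (chr5:114444269-114460591), stood at 32.8, 29.4 and 31.9 CPM in CONT replicates 1 to 3 and at 23.4, 19.5 and 16.8 CPM in CAC replicates 1 to 3. Every CAC library lay below the lowest CONT library, and the CONT values were tight, with a mean of 31.4 ± 1.78 CPM (SD, n = 3). Its log2 fold change was -0.66 ± 0.20 (SE), with an edgeR p of 0.0135 and an adjusted p of 0.283. Mvd, the decarboxylase that makes isopentenyl diphosphate (chr8:122433601-122443422), stood at 21.4, 15.1 and 15.1 CPM in CONT and at 7.23, 7.02 and 11.1 CPM in CAC. The groups did not overlap, CONT replicate 1 was highest, and the log2 fold change was -1.02 ± 0.30 (SE; edgeR adjusted p = 0.281). Leaving out CAC replicate 1 or CAC replicate 2 raised the unadjusted edgeR p of Mvd to 0.0608 or 0.0507, and leaving out CAC replicate 2 raised that of Mvk to 0.0509.

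Hmgcs1, the cytosolic synthase that starts the committed route (chr13:119690379-119708260), also separated the groups, at 130.4, 115 and 98.7 CPM in CONT and in CAC at 80.7, 76.7 and 96.5 CPM. Its highest CAC level lay just under the lowest CONT library. The log2 fold change was -0.44 ± 0.19 (SE), with an edgeR p of 0.0591 and an adjusted p of 0.392, and its p was 0.0471 without CONT replicate 3 and 0.186 without CAC replicate 1. Pmvk, Idi1 and Fdps, which phosphorylate, isomerize and condense the isoprenoid units, overlapped between groups, with log2 fold changes of -0.29, -0.19 and -0.32. When 1 library was left out, that of Pmvk ranged from -0.44 without CONT replicate 3 to -0.05 without CONT replicate 1, that of Idi1 from -0.49 to 0.12, and that of Fdps from -0.72 without CAC replicate 3 to -0.08 without CAC replicate 2. Fdps was counted with 110 reads in all 6 libraries together, and 26.7% of its exon bases are shared with Gm43738 on the same strand, a gene with 0 reads in every library. Its level is therefore uncertain.

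Acat2, the cytosolic thiolase at the entry of the route (chr17:12942890-12960747), was the only mevalonate gene with a higher mean in CAC. It stood at 95.9, 80.1 and 95.6 CPM in CONT and at 85.5, 111 and 231 CPM in CAC. The groups overlapped, CAC replicate 3 carried the difference, and the log2 fold change was 0.66 ± 0.38 (SE; edgeR adjusted p = 0.487). It was 0.13, with a p of 0.593, without CAC replicate 3 and 0.96, with a p of 0.0411, without CAC replicate 1. Acat2 shares 45.9% of the 50-base words of its transcript with its paralog Acat3, which was counted with 27 to 310 reads per library, so that reads of the pair cannot be told apart in those stretches.

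None of the 3 enzymes that lead to squalene and close it to lanosterol separated the groups. Sqle, the squalene epoxidase, which is a rate-controlling step, stood at 12.4, 28.1 and 35.4 CPM in CONT and at 7.93, 11.3 and 24.5 CPM in CAC. The groups overlapped, with CONT replicate 1 and CAC replicate 3 each the library of its group nearest to the other group, and the log2 fold change was -0.80 ± 0.54 (SE; edgeR adjusted p = 0.540). Without CAC replicate 3 it was -1.39, with a p of 0.0347, but it was -0.44 (p of 0.456) without CAC replicate 1 and -0.47 (p of 0.477) without CONT replicate 3. Lss, the cyclase that makes lanosterol, had a log2 fold change of -0.58 ± 0.32 (SE). It was -0.80 (p of 0.0264) without CONT replicate 1, but -0.32 (p of 0.349) without CAC replicate 1 and -0.35 (p of 0.360) without CONT replicate 3. Fdft1, which makes squalene, differed by -0.03 ± 0.25 (SE) on the log2 scale. Its 13344 reads face the 153648 reads of Ctsb, a lysosomal protease gene that overlaps 18.3% of its exon bases on the opposite strand, and whether counting used the strand is not given in the sources used here.

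Both Sc5d and Nsdhl, of the steps after lanosterol, set the groups apart. Sc5d, the sterol C5 desaturase (ENSMUSG00000032018, chr9:42251595-42264256, minus strand), stood at 76.2, 131 and 113 CPM in CONT and at 50.7, 40.8 and 37.7 CPM in CAC. Every CAC library lay well below every CONT library, and CONT replicate 1 was the lowest of its group. The means were 107 ± 28.1 CPM in CONT and 43.1 ± 6.80 CPM in CAC (SD, n = 3), with a log2 fold change of -1.31 ± 0.26 (SE), an edgeR p of 0.00161 and an adjusted p of 0.221. DESeq2 gave Sc5d an adjusted p of 0.000599, the smallest among the lower genes.

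Nsdhl, a dehydrogenase that takes part in removing the methyl groups at C4 of the ring (ENSMUSG00000031349, chrX:72918557-72958514, plus strand), stood at 25.9, 47.9 and 56.1 CPM in CONT and at 18.03, 14.9 and 12.5 CPM in CAC. The groups did not overlap, but CONT replicate 1 lay closer to the CAC libraries than to its own group. The means were 43.3 ± 15.6 and 15.1 ± 2.77 CPM (SD, n = 3), with a log2 fold change of -1.52 ± 0.33 (SE), an edgeR p of 0.00267 and an adjusted p of 0.228. DESeq2 gave an adjusted p of 0.00287.

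Msmo1, the oxidase that starts the same C4 demethylation, stood at 28.5, 27.4 and 38.2 CPM in CONT and at 17.0, 17.9 and 25.0 CPM in CAC. The groups were apart by a narrow margin, and the log2 fold change was -0.65 ± 0.24 (SE; edgeR adjusted p = 0.339). Its p was 0.118, 0.124 or 0.109 without CONT replicate 3, CAC replicate 1 or CAC replicate 2. Dhcr7, the reductase of the last step on one of the routes (chr7:143823145-143848410), stood at 13.9, 18.8 and 15.6 CPM in CONT and at 6.08, 10.9 and 7.93 CPM in CAC. The groups did not overlap, and the log2 fold change was -0.96 ± 0.30 (SE; edgeR adjusted p = 0.290). Its p was 0.0642 without CONT replicate 2 and 0.0560 without CAC replicate 1.

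The remaining enzymes of this stretch varied more within the groups or hardly at all. Tm7sf2, a sterol C14 reductase, ran from 6.598 to 27.3 CPM in CONT and from 5.33 to 9.28 CPM in CAC, and its log2 fold change of -1.17 ± 0.55 (SE) became -1.52 with a p of 0.0219 without CONT replicate 1, but -0.44 with a p of 0.386 without CONT replicate 3. The GENCODE annotation gives Tm7sf2 4403 exon bases, against a deposited length of 5593 bases, so the 2 gene models differ. By GENCODE it shares 12.1% of those bases with Vps51 on the same strand, a gene with 314 reads against its 1470. Hsd17b7, the ketoreductase of C4 demethylation, had a log2 fold change of -0.24 ± 0.38 (SE). Ebp, the isomerase that precedes Sc5d in the route, was nearly level across all libraries, from 30.8 to 36.1 CPM in CONT and from 30.2 to 36.7 CPM in CAC. The ratio of Sc5d to Ebp in FPKM, which divides counts by gene length and library total, was 1.03, 2.02 and 1.49 in CONT and 0.724, 0.642 and 0.488 in CAC. The groups did not overlap in this ratio.

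Cyp51, the lanosterol 14-demethylase (chr5:4081145-4104746, minus strand), went the other way in 1 library. It stood at 57.7, 51.8 and 61.4 CPM in CONT and at 40.0, 60.9 and 290.3 CPM in CAC. CAC replicate 3 lay far above all others, while CAC replicate 1 lay under the CONT libraries and CAC replicate 2 lay within their range. The log2 fold change was 1.20 ± 0.72 (SE; edgeR adjusted p = 0.498) and was -0.17 without CAC replicate 3 and 1.67, with a p of 0.0453, without CAC replicate 1. The same library also held the highest Acat2 level. Beside it stood the sperm genes Prm1, at 301 CPM, and Tnp1, at 86.0 CPM, in CAC replicate 3. Prm1 was at 222 CPM and Tnp1 at 71.1 CPM in CONT replicate 2, where Cyp51 was at 51.8 CPM, and neither gene passed 3.21 CPM in the other 4 libraries. The neutrophil marker S100a8 was also highest in CAC replicate 3, at 492 CPM. The part of these genes in the Cyp51 level was not tested.

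Summed over the 18 enzymes, synthesis transcripts came to 741, 787 and 866 CPM in CONT and to 549, 615 and 981 CPM in CAC. With Cyp51 and Acat2 left out, a choice made after their values were seen, the other 16 enzymes came to 588, 655 and 709 CPM in CONT and to 424, 443 and 459 CPM in CAC. The sum then did not overlap between groups. Cyp51 and Acat2 were the only 2 of the 18 enzymes with a higher fitted level in CAC, so leaving them out favored that outcome. Cyp51 and Acat2 made up 53.2% of the sum in CAC replicate 3 and 16.8% to 28.01% in the other 5 libraries.

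**Figure D3:**
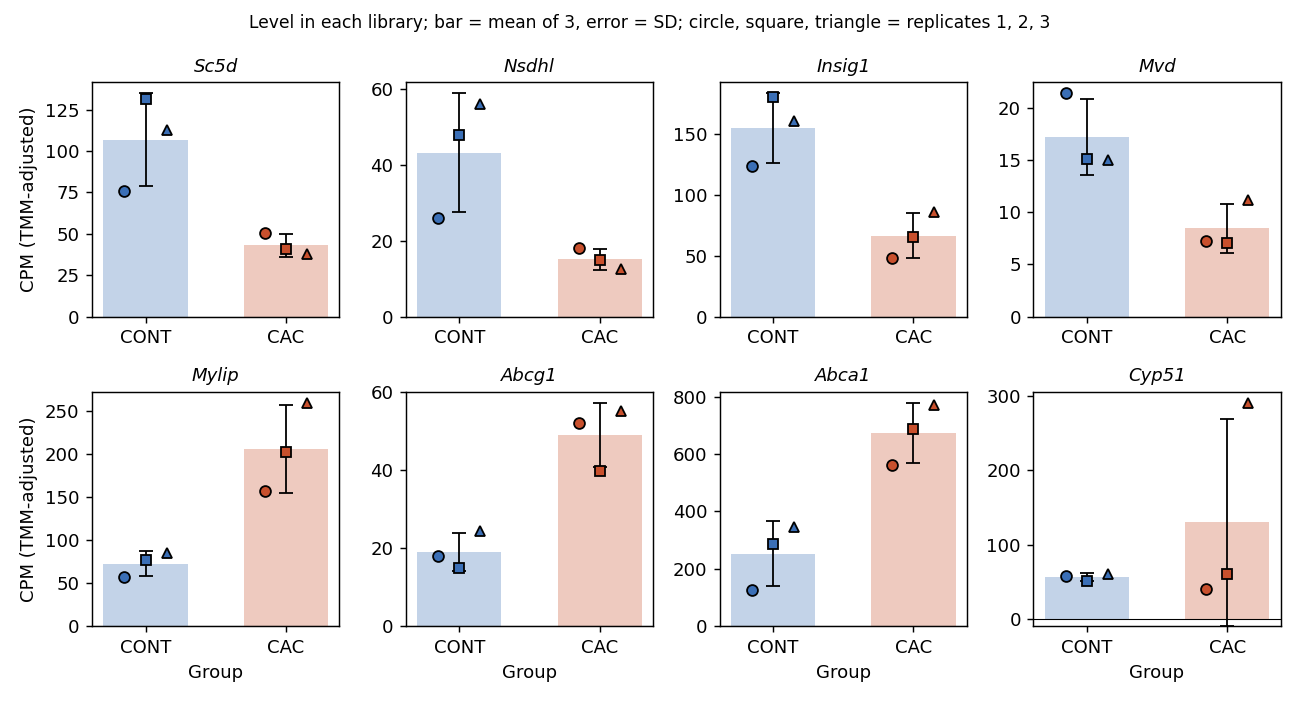
CPM of 8 cholesterol genes in each of the 6 libraries, with 1 panel per gene, points for libraries, and bars for the group mean with its SD (n = 3). Sc5d, Nsdhl and Insig1 show every CAC point below every CONT point, Mylip, Abca1 and Abcg1 show the reverse, and the Cyp51 panel shows the single high point of CAC replicate 3 at 290.3 CPM.

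Among the regulators, the sterol sensor Insig1 (ENSMUSG00000045294, chr5:28071363-28078662, plus strand) was the only one set apart by group. It stood at 124, 180.4 and 161 CPM in CONT and at 48.6, 65.5 and 86.1 CPM in CAC. Every CAC library lay below the lowest CONT library. The means were 155 ± 28.7 and 66.7 ± 18.8 CPM (SD, n = 3), with a log2 fold change of -1.22 ± 0.27 (SE), an edgeR p of 0.00349 and an adjusted p of 0.228, and DESeq2 gave an adjusted p of 0.00438. Insig2, its paralog, which is not a known SREBP2 target, stood at 45.0, 49.6 and 57.0 CPM in CONT and at 92.2, 53.8 and 77.7 CPM in CAC. Those groups overlapped through CAC replicate 2, and the log2 fold change was 0.56 ± 0.24 (SE; edgeR adjusted p = 0.383), or 0.76 with a p of 0.0147 without that library and 0.43 with a p of 0.121 without CAC replicate 1.

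The balance of both paralogs differed between the groups as a description. The ratio of Insig1 to Insig2 in FPKM was 3.09, 4.08 and 3.16 in CONT and 0.592, 1.37 and 1.24 in CAC. The lowest CONT ratio was above the highest CAC ratio, and in CAC replicate 1 Insig2 was the more abundant of the pair. Srebf2 itself ran from 49.8 to 136 CPM in CONT and from 58.8 to 85.1 CPM in CAC, with a log2 fold change of -0.32 ± 0.37 (SE). Scap, the escort of SREBP2, ran from 50.8 to 67.1 CPM in CONT and from 57.2 to 66.0 CPM in CAC, with a log2 fold change of 0.11 ± 0.18 (SE). Transcript levels do not show how much SREBP2 protein was cut and active.

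Of the genes of uptake and efflux, 3 stood higher in every CAC library than in any CONT library. They were the only ones of the 28 genes, a share no larger than the 11.8% of all genes tested. Mylip, a ubiquitin ligase that marks lipoprotein receptors for degradation (ENSMUSG00000038175, chr13:45389742-45412022, plus strand), stood at 56.9, 76.5 and 84.4 CPM in CONT and at 157, 202 and 259 CPM in CAC. The lowest CAC library was well above the highest CONT library. The means were 72.6 ± 14.2 and 206 ± 51.0 CPM (SD, n = 3), with a log2 fold change of 1.504 ± 0.27 (SE), an edgeR p of 0.000996 and an adjusted p of 0.215. DESeq2 gave an adjusted p of 2.91e-05, the smallest of the 28 genes.

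Abca1, which loads cholesterol onto lipid-poor apolipoprotein particles (ENSMUSG00000015243, chr4:53030787-53159895, minus strand), stood at 126, 288 and 345 CPM in CONT and at 562, 686 and 769.8 CPM in CAC. CONT replicate 1 was the lowest by far, yet the other CONT libraries also stayed under every CAC library. The means were 253 ± 114 and 673 ± 105 CPM (SD, n = 3), with a log2 fold change of 1.41 ± 0.41 (SE), an edgeR p of 0.0115 and an adjusted p of 0.275, and DESeq2 gave 0.0132. Without CONT replicate 1 the log2 fold change was 1.1. Abcg1, which moves cholesterol to mature lipoprotein particles (ENSMUSG00000024030, chr17:31057698-31115777, plus strand), stood at 18.1, 14.8 and 24.4 CPM in CONT and at 52.1, 39.8 and 55.2 CPM in CAC. The groups did not overlap. The means were 19.1 ± 4.84 and 49.0 ± 8.14 CPM (SD, n = 3), with a log2 fold change of 1.36 ± 0.25 (SE), an edgeR p of 0.00120 and an adjusted p of 0.215, and DESeq2 gave 0.000565.

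Macrophages also express both exporters at a high level, so the macrophage markers are set beside them. None of those 9 markers was higher in CAC without overlap, and their sum was 483, 1263 and 1343 CPM in CONT and 1164, 530.4 and 504 CPM in CAC. The neutrophil sum was also higher in every CAC library than in any CONT library, at 4.82 to 52.0 CPM in CONT and 137 to 980.1 CPM in CAC. The defining neutrophil marker Ly6g was at 0 to 0.136 CPM in CONT and at 0.657 to 3.25 CPM in CAC, and the part of the macrophage and neutrophil markers in the result was not tested.

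The other transport genes differed less. Stard4, a soluble carrier of sterol to the endoplasmic reticulum and a known SREBP2 target, stood at 27.3, 27.7 and 23.2 CPM in CONT and at 13.9, 17.7 and 18.9 CPM in CAC. The groups did not overlap, and the log2 fold change was -0.63 ± 0.21 (SE; edgeR adjusted p = 0.305). Its p was 0.0698 without CONT replicate 2 and 0.0834 without CAC replicate 1. Scarb1, the receptor that takes up cholesterol ester from high-density lipoprotein, ran from 157 to 255 CPM in CONT and from 228 to 338 CPM in CAC, with a log2 fold change of 0.43 ± 0.27 (SE), from 0.28 without CONT replicate 1 to 0.62 without CONT replicate 3. Soat1, which esterifies cholesterol for storage, ran from 8.83 to 25.1 CPM in CONT and from 15.6 to 22.3 CPM in CAC, with a log2 fold change of 0.16 ± 0.39 (SE). The ratio of the exporter Abca1 to the importer Scarb1 in FPKM was 0.656, 1.12 and 1.11 in CONT and 2.02, 2.04 and 1.87 in CAC.

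Compared per length, the order of the levels changed at its head. In CONT, Insig1 led the 28 genes at a mean of 40.2 ± 7.14 FPKM (SD, n = 3), followed by Acat2 at 28.6 ± 3.04 FPKM and Pmvk at 25.6 ± 7.18 FPKM. In places 4 to 9, Hmgcs1, Scarb1, Abca1, Fdft1, Mylip and Sc5d lay between 17.6 and 20.1 FPKM and differed by less than their SD. In CAC, Abca1 led at 53.0 ± 7.96 FPKM and Mylip followed at 52.0 ± 12.7 FPKM, within each other's spread, and Insig1 was in place 8 at 17.6 ± 4.88 FPKM. Sc5d went from place 9 to 14 and Nsdhl from 10 to 17, while Abcg1 went from 19 to 12. Fdps was last in both groups, at 0.173 and 0.142 FPKM. The ratio of Abca1 to Insig1 in FPKM was 0.303, 0.477 and 0.640 in CONT and 3.45, 3.13 and 2.67 in CAC, so the more abundant of the pair was Insig1 in every CONT library and Abca1 in every CAC library.

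**Figure D4:**
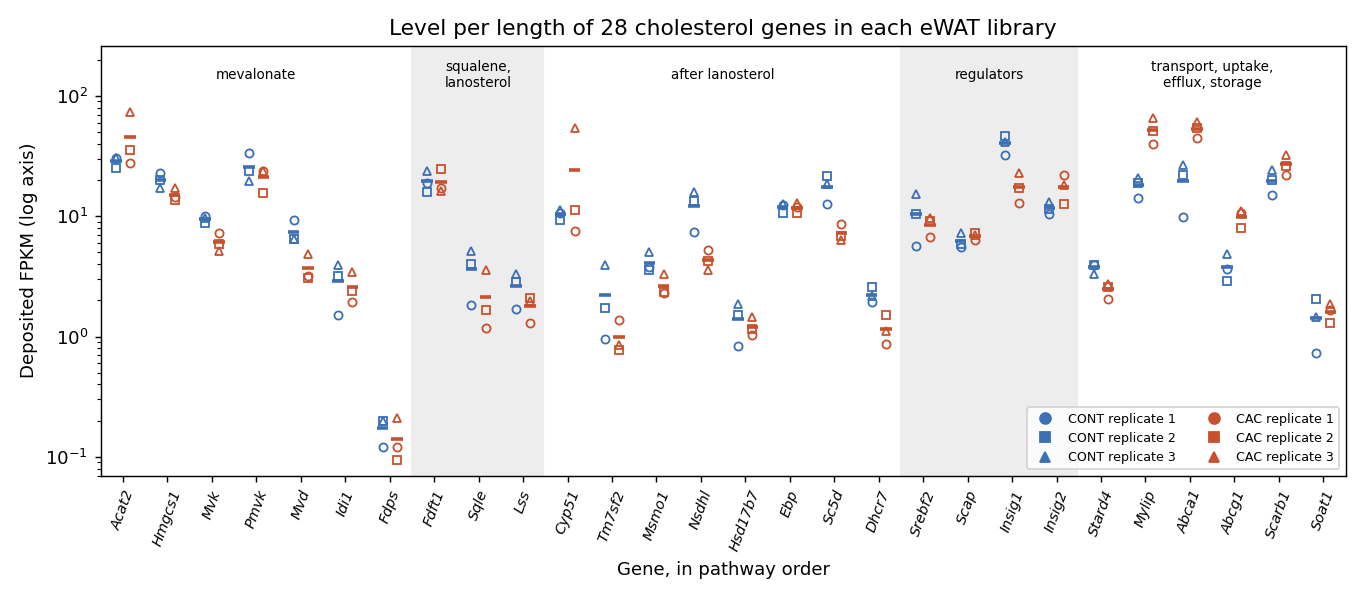
Mean FPKM of the 28 genes in CONT and CAC (short lines, log axis) with 1 point per library, ordered by role. Insig1 leads in CONT at 40.2 FPKM, and Abca1 and Mylip lead in CAC at 53.0 and 52.0 FPKM.

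The pattern of the 28 genes also depended on the library. Of the 18 synthesis enzymes, 15 had their lowest level in a CAC library, and 7 had their highest in CONT replicate 3. That library also held 9106 CPM of the epididymis markers, whose part in these levels was not tested. CONT replicate 1 held the lowest level of 9 of the 28 genes, among them the exporter Abca1. In the 6 fits that left out 1 library each, 21 of the 28 genes kept the sign of their log2 fold change. Nsdhl, Sc5d, Insig1, Mylip, Abca1 and Abcg1 had an edgeR p under 0.05 in each of those fits. The share of all genes tested was not taken for the counts in this paragraph, so they do not set these genes apart.

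Further genes of the pathway were taken from 4 lists and described by counts, with genes of the smallest p of each named. Of all 17296 genes tested, 9353 were lower, 6.95% were lower and 6.31% higher at an edgeR p under 0.05, and 10.7% and 11.8% were lower and higher without overlap. Of 5 other sterol synthesis genes, 2 were lower and 3 higher, and the median log2 fold change was 0.28, with a range from -0.42 without CAC replicate 3 to 0.53 without CAC replicate 1, and -0.28 with voom. Without overlap, 1 of them was lower and 2 were higher. Erg28, a scaffold that tethers the C4 demethylation enzymes, stood at 19.8, 21.3 and 20.4 CPM in CONT and at 12.7, 13.7 and 11.1 CPM in CAC. Its groups did not overlap, with a log2 fold change of -0.71 ± 0.20 (SE; edgeR adjusted p = 0.273) and a DESeq2 adjusted p of 0.0212. Lbr, a sterol reductase of the inner nuclear membrane, stood at 17.03, 37.1 and 35.5 CPM in CONT and at 45.3, 46.6 and 57.2 CPM in CAC, with a log2 fold change of 0.73, or 0.47 without CONT replicate 1. Acat1, the mitochondrial thiolase, stood at 263, 183 and 198 CPM in CONT and at 299, 288 and 315 CPM in CAC, with one of 0.49. These were the 2 higher genes without overlap, and neither had a p under 0.05.

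Of 14 genes of SREBP processing and sterol-regulated degradation, 5 were lower and 9 higher, with a median of 0.19, and none had a p under 0.05. That median ran from 0.13 without CONT replicate 1 to 0.25 without CONT replicate 3, and was 0.092 with voom. Erlin2 and AW209491, among the smallest p of the list, had log2 fold changes of -0.49 and 0.38. The proteases that cut SREBP2, encoded by Mbtps1 and Mbtps2, had log2 fold changes of 0.19 and 0.46, or 0.08 and 0.23 without CONT replicate 1. Srebf1, which encodes the SREBP of fatty acid synthesis, had one of -0.53 ± 0.34 (SE). Of 14 genes of sterol transport inside the cell and ester hydrolysis, 4 were lower and 10 higher, with a median of 0.20 and 2 genes, both higher, at a p under 0.05. That median ranged from 0.065 without CONT replicate 1 to 0.38 without CONT replicate 2, none of the 14 had a p under 0.05 without CAC replicate 3, and with voom 9 were lower and 5 higher, with a median of -0.06. Stard5, a sterol carrier of the same family as Stard4, stood at 41.5, 38.5 and 31.6 CPM in CONT and at 44.2, 79.8 and 83.9 CPM in CAC. Its groups did not overlap, with CAC replicate 1 close to the CONT libraries, and it had a log2 fold change of 0.90 ± 0.28 (SE; edgeR adjusted p = 0.291), opposite in sign to Stard4. Osbpl9, an oxysterol-binding protein relative, stood at 95.2, 119.8 and 129 CPM in CONT and at 160, 172 and 191 CPM in CAC, also without overlap, with a log2 fold change of 0.60 ± 0.20 (SE; edgeR adjusted p = 0.305). DESeq2 gave it an adjusted p of 0.0354, the only one of the 14 under 0.05, and none was under 0.05 without CONT replicate 2. Gramd1a, which moves sterol from the plasma membrane, had one of 0.73, or 0.37 without CAC replicate 3.

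Of 14 genes of LXR, oxysterols and lipoproteins, 13 could be tested, 5 of them lower and 8 higher, with a median of 0.16, from 0.067 without CAC replicate 2 to 0.17 without CAC replicate 1, and 0.049 with voom, and 1 gene, Lrp1, at a p under 0.05. Lrp1, a large endocytic receptor of the lipoprotein receptor family, stood at 265, 850.3 and 987 CPM in CONT and at 1329, 2313 and 2133 CPM in CAC. Its groups did not overlap, and the log2 fold change was 1.46 ± 0.54 (SE; edgeR adjusted p = 0.339). No gene of this list had an unadjusted edgeR p under 0.05 without CONT replicate 2, CAC replicate 2 or CAC replicate 3. Rxra, the partner of LXR, had a log2 fold change of 0.60, and Abcg4, an exporter close to Abcg1, one of -0.84. Of other known LXR targets, Pltp, the phospholipid transfer protein, had a log2 fold change of -0.81 ± 0.59 (SE), or -0.52 without CAC replicate 3, and Srebf1 had the one of -0.53 given above. Lpcat3, which remodels phospholipids, had 0.17 ± 0.31 (SE), or -0.09 without CONT replicate 1. The LXR genes Nr1h2 and Nr1h3 had log2 fold changes of 0.19 and 0.42, or 0.13 and 0.81 without CONT replicate 1. The oxysterol enzymes Ch25h and Cyp27a1 had -0.16 and -0.06, but Ch25h had 0.20 without CONT replicate 1 and Cyp27a1 had 0.22 without CAC replicate 3. Those last 4 genes had an edgeR p of 0.215 or more.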

How the data were processed

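eWAT mRNA of 3 CAC and 3 CONT mice was sequenced, with 1 library per mouse. The authors aligned the reads with HISAT2 (mouse genome, Ensembl release 94) and deposited raw counts per gene, not normalized, and FPKM values, in which those counts are divided by the length of the gene and a total for the library. The submitters' processing notes name HISAT2 2.0.5 and featureCounts 1.5.0-p3. The strand setting of counting is not given in the sources used here. Coordinates are those of GRCm38. Reads were not processed again.

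The counts were tested in R 4.3.3 with edgeR 4.0.16 (quasi-likelihood with robust estimation, TMM, filterByExpr by group, Benjamini-Hochberg over all genes tested) with condition as the only term. A deposited FPKM was used for levels between genes. Alternatives were DESeq2 1.42.0, voom with sample quality weights and FPKM with a pseudocount of 1 or 0.1 (over genes reaching an FPKM of 0.5 in 3 libraries) in limma 3.58.1, RLE and upper-quartile scaling, no filter, at least 10 counts in every library, a length offset, a replicate block, and each library left out. Precision was set by the spread between mice (common dispersion 0.265) rather than by depth, at 11.2 to 26.5 reads per CPM. Groups and replicates came from the sample labels, and p-values measure the spread between these mice. No library was a copy of another of its group within counting noise. Scripts were tested on simulated data. Promoter windows are those of RefSeq. The genes, lists and motifs were chosen with earlier results of these data known. Of the 28 genes, per-library values are given for those with an unadjusted p under 0.05 or without overlap, and for Acat2, Sqle, Cyp51 and Insig2, which were added after their values were seen. In further lists the 3 smallest p were named by rule, except for 1 gene that is not reported here, and Mbtps1, Mbtps2, Srebf1, Pltp, Nr1h2, Lpcat3, Nr1h3, Ch25h, Cyp27a1 and Dhdds were added for their roles. Per-library values are given there for genes with an unadjusted p under 0.05 and for Lbr, Acat1 and Npc2, added after their values were seen. Ratios and sums of genes were formed after values were seen and carry no test.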

Additional observations from a re-analysis of the deposited data

How the results depend on the processing

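With 3 mice a group, the count of passing genes hung on the tool. DESeq2 gave 6 of the 28 genes an adjusted p under 0.05 and voom with sample quality weights gave 8, while edgeR under every setting and limma on FPKM gave 0. Leaving out 1 library gave 3 to 7 with DESeq2, against 3.32% to 11.3% of all genes, and 0 with edgeR (0% of all genes). At an unadjusted p under 0.05, the 8 lower genes became 4 to 10 with edgeR or 7 to 10 with DESeq2 when 1 library was left out, against 3.69% to 8.28% and 4.32% to 6.27% of all genes. The edgeR count was 4 and 5 without CAC replicates 1 and 2 (5.37% and 3.69%) and 10 without CONT replicate 1 (8.28%). The 3 higher genes became 3 to 5 with edgeR and 3 to 6 with DESeq2, against 3.55% to 7.3% and 3.24% to 6.94% of all genes, with 5 and 6 without CAC replicate 1 and, in DESeq2, 5 without CONT replicate 3. The synthesis median of -0.51 was -0.66 with voom, -0.39 with log2(FPKM + 1), a scale that understates low genes, -0.59 to -0.36 with edgeR when 1 library was left out, and -0.37 and -0.42 with DESeq2 without CAC replicate 1 and CONT replicate 3. Under RLE, upper-quartile and length-offset scales, 12 genes did not overlap, as on the main scale. The share of all genes was taken on the main scale only, where 10.7% were lower and 11.8% higher without overlap.

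Of the log2 fold changes of the 28 genes, 31 turned in sign, in 7 genes that did not separate the groups. Without a filter Fdft1 was 0.042 and Ebp 0.051, with a length offset Ebp was 0.088, and with voom Fdft1 was 0.13 and Soat1 -0.26. When 1 library was left out with edgeR, Fdft1 ranged from -0.25 to 0.14, Ebp from -0.089 to 0.054, Soat1 from -0.14 to 0.53, Idi1 from -0.49 to 0.12, Hsd17b7 from -0.50 to 0.027, Srebf2 from -0.61 to 0.074 and Cyp51 from -0.17 to 1.67. With DESeq2, leaving out CONT replicate 1 gave 0.051 for Ebp and -0.092 for Soat1. Without CONT replicate 3 it gave 0.15 for Idi1, 0.16 for Fdft1, 0.051 for Hsd17b7, 0.058 for Ebp and 0.11 for Srebf2. Without CAC replicate 1 it gave 0.024 for Idi1, 0.080 for Fdft1 and 0.0055 for Ebp, without CAC replicate 2 it gave 0.068 for Ebp, and without CAC replicate 3 it gave 0.12 for Fdft1 and -0.14 for Cyp51. The cause was not tested.

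Whether the replicate numbers paired the mice could not be settled with 3 libraries per group. Same-numbered libraries deviated from their group means with correlations of 0.306, -0.151 and -0.218, and the other pairs ranged from -0.442 to 0.473. With the replicate block, 0 of the 28 passed an adjusted p of 0.05 (as did 0.00578% of all genes), 9 were lower and 3 were higher at an unadjusted p under 0.05 (6.29% and 5.23% of all genes), and the synthesis median was -0.49.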

Other observations

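Mevalonate also feeds branches that do not end in cholesterol, and their genes were described from a list of 14 (isoprenoid chains for ubiquinone and dolichol, and protein prenylation). Of these, 6 were lower and 8 higher, the median log2 fold change was 0.20 (from 0.11 without CONT replicate 1 to 0.24 without CONT replicate 2, and 0.088 with voom), and 1 had an edgeR p under 0.05, on the higher side, where 6.31% of all genes did. Nus1, a subunit of the enzyme that makes the dolichol chain, stood at 59.9, 76.3 and 86.4 CPM in CONT and at 119.7, 93.1 and 161 CPM in CAC. Its groups did not overlap, and the log2 fold change was 0.75 ± 0.26 (SE; edgeR adjusted p = 0.327). None of the 14 had an unadjusted edgeR p under 0.05 without CONT replicate 2 or CAC replicate 3. Ggps1, which makes the geranylgeranyl unit, and Rabggtb, a subunit of the transferase that places it on Rab proteins, had log2 fold changes of 0.36 and 0.56. Dhdds, the partner subunit of Nus1, had one of -0.10 ± 0.18 (SE), or 0.02 without CONT replicate 1.

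Npc2, whose protein carries sterol out of the lysosome, stood at 482, 547 and 555 CPM in CONT and at 432, 366 and 333 CPM in CAC. Its groups did not overlap, and the log2 fold change was -0.49 ± 0.22 (SE; edgeR adjusted p = 0.410). Npc2 was named after its values were seen.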
